A study of Rattus norvegicus with 12 samples.

Results

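The genes described here encode proteins of complement, blood coagulation and fibrinolysis, and were measured in both atrial appendages of rats with and without volume overload of the heart. Of 41 genes listed by name, 36 had a probe set that the array's annotation gives to that gene alone, out of 14217 genes measured in all. Each gene is represented by its brightest probe set (by the mean of all 12 arrays), and 10 of the 36 genes had more than 1. C2, Cfb, C7 and F7 are not analysed here, and the annotation holds Cd59 under the name Cd59b, which is given separately and not counted among the 36.

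The rats were male Sprague-Dawley animals of 225 to 275 g, whose age the labels do not state. Right and left appendages were taken 28 days after an aorto-caval shunt, a surgical connection of the abdominal aorta and the vena cava that raises the volume load of the heart, or from rats that had only the sham operation. The design crosses atrium with operation, with 3 arrays in each of the 4 groups, and each array held RNA pooled from 2 tissues, so that differences between single animals are not seen. The values are log2 RMA values, on which a difference of 1 is 2-fold, and a gene is said to have passed, risen or fallen where its adjusted p in a limma fit of all 31042 probe sets was under 0.05.

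Complement is a cascade of serum proteases that is started by C1 (C1q with the proteases C1r and C1s), by lectins with MASP proteases, or through C3 itself. It converges on C3 and C5, whose small fragments act on the receptors C3aR and C5aR1 of leukocytes, and ends in the membrane attack complex of C5b to C9. Coagulation starts from tissue factor (F3) with factor VII and leads through thrombin (F2) to fibrin. Thrombomodulin, the protein C receptor, protein S and TFPI restrain it, and plasmin, made by the activators Plat and Plau, removes the fibrin. Most of the circulating proteins are made by the liver, but macrophages are known to make C1q and factor XIII-A, endothelium to make factor VIII, thrombomodulin, TFPI and tissue plasminogen activator, and fibroblasts to make C1r, C1s, C3 and C1 inhibitor.

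The promoters of the 3 fibrinogen chain genes and of Plaur are shown first, because Fgg, the gamma chain, gave the largest fall with the shunt, while its neighbours Fga and Fgb did not pass, and because Plaur was among the genes that rose in the right atrium. The sequences run 5′ to 3′ from 250 bases before to 50 bases after the start of transcription, from RefSeq's rat assembly GRCr8. They lie at chr2:170652833-170653132 (plus strand, Fgg), chr2:170671919-170672218 (plus strand, Fga, the first of 2 listed starts), chr2:170700826-170701125 (minus strand, Fgb) and chr1:89181113-89181412 (plus strand, Plaur). Capitals mark matches on either strand to the C/EBP motif TTGCNNAA, the interleukin 6 type motif CTGGGAA, the TATA box TATAAA and the AP-1 motif TGANTCA, none of which overlapped another here.
Fgg: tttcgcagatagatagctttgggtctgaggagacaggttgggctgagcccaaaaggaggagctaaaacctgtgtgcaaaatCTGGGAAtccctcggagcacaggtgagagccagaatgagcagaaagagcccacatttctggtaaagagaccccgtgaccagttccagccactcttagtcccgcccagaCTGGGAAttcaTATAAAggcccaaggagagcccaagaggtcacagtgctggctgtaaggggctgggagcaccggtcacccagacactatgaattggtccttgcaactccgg
Fga: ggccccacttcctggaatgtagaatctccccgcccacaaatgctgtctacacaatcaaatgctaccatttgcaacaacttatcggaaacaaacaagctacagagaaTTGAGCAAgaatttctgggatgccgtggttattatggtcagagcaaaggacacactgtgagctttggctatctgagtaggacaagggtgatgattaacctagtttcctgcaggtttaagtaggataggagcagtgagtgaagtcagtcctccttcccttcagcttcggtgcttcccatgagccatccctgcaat
Fgb: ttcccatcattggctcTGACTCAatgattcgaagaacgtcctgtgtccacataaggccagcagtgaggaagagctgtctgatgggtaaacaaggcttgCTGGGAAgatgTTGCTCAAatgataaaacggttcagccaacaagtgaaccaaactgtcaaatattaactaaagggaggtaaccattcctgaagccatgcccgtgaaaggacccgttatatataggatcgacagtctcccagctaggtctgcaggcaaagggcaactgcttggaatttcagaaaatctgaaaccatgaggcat
Plaur: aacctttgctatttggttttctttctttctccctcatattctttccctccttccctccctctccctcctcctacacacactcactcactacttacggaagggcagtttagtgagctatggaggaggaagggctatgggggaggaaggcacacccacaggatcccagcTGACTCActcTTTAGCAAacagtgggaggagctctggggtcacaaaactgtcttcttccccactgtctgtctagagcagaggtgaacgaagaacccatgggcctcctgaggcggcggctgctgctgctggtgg

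The Fgg promoter held 2 interleukin 6 type motifs, at -169 and -61 from the start, and a TATA box at -50. The Fga promoter held a C/EBP motif at -144. The Fgb promoter held a C/EBP motif at -141, an interleukin 6 type motif at -152 and an AP-1 motif at -234. The Plaur promoter held an AP-1 motif at -83 and a C/EBP motif at -73. Of all 33469 promoters of this length, 10.6% held the C/EBP motif, 11.27% the interleukin 6 type motif, 14.22% the TATA box and 7.33% the AP-1 motif. Of the 25 measured genes of these pathways with a promoter in the table, 7, 5, 2 and 6 held them. These are letter matches only, and binding was not measured.

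The arrays had medians between 5.44 and 5.47, and all left arrays lay apart from all right arrays on the first principal component (60.5% of the variance). On the second component left atrium shunt replicate 3 lay far from the other arrays of its group, at -26.70 against 14.95 and 13.62. Right atrium shunt replicates 2 and 3 carried the ventricular transcription factor Irx4 at 5.86 and 5.94, against 4.18 on replicate 1 and 4.26 to 4.44 on the right atrium sham arrays. Of 5 ventricular markers Myh7, Myl3, Myl2 and Hey2 rose with the shunt in the right atrium (median of the list 1.42) and Myh7 in the left (median 0.73), the largest median shift among the marker lists tested. The log2 of their sum lay at 11.75 to 11.86 on the right sham arrays and at 12.40, 13.68 and 13.59 on right shunt replicates 1, 2 and 3, and at 9.18 to 9.79 on the left sham and 10.23 to 10.91 on the left shunt arrays. The sum was thus higher on the shunt than on the sham arrays of each atrium, while 1 of the 5 markers differed by -0.13 on the left. Whether the operation or the tissue taken set these levels was not tested, nor was the part of these markers in the results below. The tissue entry of the labels names ventricles besides atria. The atrial markers Nppa, Myl4, Myl7 and Sln were bright on all arrays. The 3′ minus 5′ difference of beta-actin, a sign of RNA quality, lay at 1.91 to 2.03 on the right atrium shunt arrays and at 1.58 to 1.82 on the right atrium sham arrays, and at 1.14 to 1.39 and 1.31 to 1.31 on the left atrium shunt and sham arrays. That of GAPDH lay at 0.35 to 0.38 (shunt) and 0.32 to 0.40 (sham) on the right, with overlap. On the left it lay at 0.18 to 0.28 (shunt) and 0.20 to 0.21 (sham). Both differences were thus higher on all right than on all left arrays, and their part in the results below was not tested. Probe sets of 14 of the 36 genes lay below the median of all probe set means, 7 of them in the lowest 25% (C5, Cfi, F2, F10, Serpind1, Fga and Fgb), where differences rest on dim signal.

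After the shunt, the right atrium had higher C5ar1, Thbd and Plaur and lower Fgg, and the left atrium had lower Fgg. Averaged over both atria, Serpine2, Tfpi and Serping1 rose and Fgg fell. The average counts right and left arrays as separate pools, and the labels do not say whether these share rats. If they do, the pools given for the average are not all independent, and its SE and p-values may be too small. In the right atrium 3 of 36 genes rose (8.33%, against 2.83% of all 14217 genes) and 1 fell (2.78%, against 1.14%), and the median log2 difference was 0.18, against 0.02 over all genes. In the left atrium none rose (against 0.373% of all genes) and 1 fell (2.78%, against 0.563%), with a median of -0.02 against -0.01. In the average, which uses the same arrays, 3 rose (8.33%, against 3.4%) and 1 fell (2.78%, against 1.86%), with a median of 0.05 against 0.00. In the right atrium 14 genes (38.9%) had an unadjusted p under 0.05, against 22.4% of all genes, and in the left atrium 8 (22.2%), against 14.7%.

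**Figure D1:**
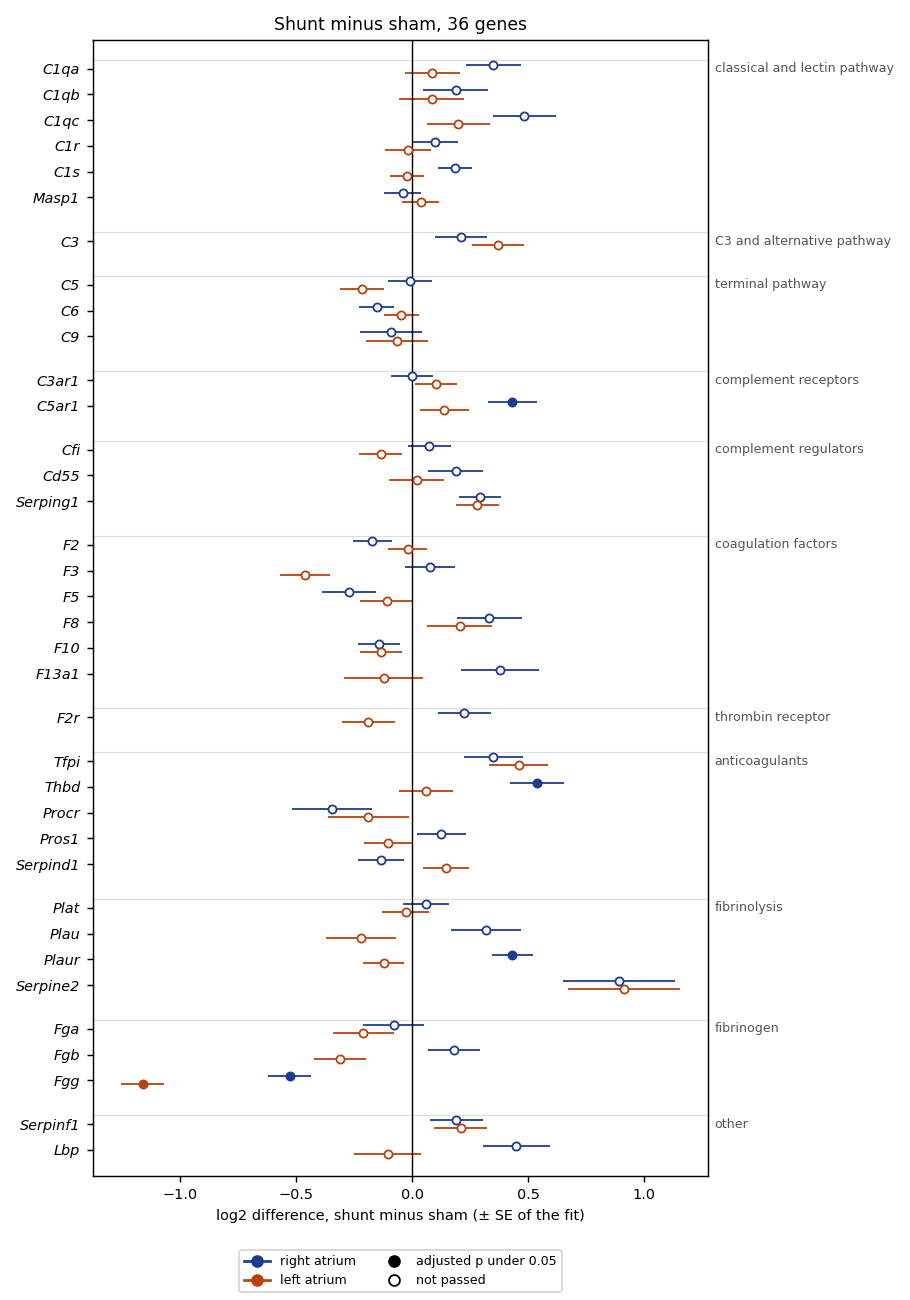
Log2 difference of shunt minus sham (x axis, with the SE of the limma fit) for the 36 genes (y axis, grouped by role) in the right atrium (blue) and left atrium (orange); filled points had an adjusted p under 0.05. Fgg lies lowest in both atria, at -0.53 and -1.16, and Serpine2 highest in both, at 0.89 and 0.91, without passing in either alone.

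None of the genes of the complement cascade proper passed with the shunt in the main fit, but C1qa, C1qc and C3 passed in some alternatives. C1q, the recognition subunit of the classical pathway, has 3 chains. C1qa lay at 8.29, 8.47 and 8.49 on the right atrium sham arrays and at 8.76, 8.77 and 8.77 on the right atrium shunt arrays, and at 7.91, 8.23 and 8.09 (sham) and 8.19, 8.39 and 7.90 (shunt) on the left. C1qc lay at 7.95, 8.32 and 8.19 (sham) and 8.74, 8.54 and 8.63 (shunt) on the right, and at 8.20, 8.12 and 8.27 (sham) and 8.41, 8.69 and 8.09 (shunt) on the left. For all 3 chains the right atrial groups did not overlap, and on the left the shunt array of replicate 3 was the lowest of its group. The right atrial differences were 0.35 ± 0.12 for C1qa (SE, n = 3 pools per group, adjusted p = 0.125), 0.19 ± 0.14 for C1qb (adjusted p = 0.501) and 0.48 ± 0.13 for C1qc (adjusted p = 0.074). C1qc passed on the right without dim probe sets, with array weights, and with trend and robust options in limma. It also passed with 1 probe set per gene and, together with C1qa, in a fit of the right arrays only. It did not pass after a second quantile normalization, after subtraction of array medians or with the replicate block. C1r, C1s and the lectin protease gene Masp1 differed by -0.04 to 0.18 on the right and by -0.02 to 0.04 on the left.

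C3, the component on which the pathways converge, lay at 5.25, 5.15 and 4.97 on the right atrium sham arrays and at 5.42, 5.29 and 5.29 on the shunt arrays. The left arrays lay at 6.02, 5.66 and 5.60 (sham) and at 6.20, 6.17 and 6.01 (shunt). The right groups did not overlap and the left ones did, and the difference averaged over both atria was 0.29 ± 0.08 (SE, n = 6 pools per condition, adjusted p = 0.0622). The averaged difference of C3 passed without dim probe sets, with array weights, with the replicate block and under both other probe set rules. It did not pass after a second quantile normalization, after subtraction of array medians or with trend and robust options. The terminal pathway genes C5, C6 and C9 differed by -0.22 to -0.01 in either atrium.

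C5ar1, the receptor through which the C5a fragment attracts and activates leukocytes, lay at 6.93, 6.93 and 6.87 on the right atrium sham arrays and at 7.28, 7.37 and 7.38 on the shunt arrays. All 3 shunt arrays were above all sham arrays, and C5ar1 rose by 0.43 ± 0.11 on the log2 scale (1.35-fold, SE, n = 3 pools per group, adjusted p = 0.0487). On the left it lay at 6.65, 6.72 and 6.59 (sham) and at 6.97, 6.90 and 6.50 (shunt), where the groups overlapped through shunt replicate 3. The right atrial call was close to the threshold: it held in 2 of 12 exclusions of an array, those of left atrium shunt replicates 1 and 3, and the adjusted p reached 0.151. It also failed after a second quantile normalization. C3ar1, the receptor of the C3a fragment, differed by 0.00 on the right and 0.10 on the left.

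Some macrophage markers rose too. Of 11 of them, Aif1, Lyz2 and Mrc1 rose in the right atrium (27.3%, against 2.83% of all genes). The median difference of the 11 was 0.42, against 0.02 over all genes. The log2 of their summed level went from 11.13 to 11.19 on the sham arrays to 11.62 to 11.79 on the shunt arrays. On the left the sum lay at 11.11 to 11.23 (sham) and at 11.74, 11.72 and 11.14 on shunt replicates 1, 2 and 3, so replicate 3 was at the sham level there as it was low in the C1q chains and C5ar1. The part of macrophages in these results was not tested. In bulk tissue, fewer or more cells of a type and less or more RNA per cell cannot be told apart.

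Of the complement regulators, Serping1, the C1 inhibitor, which also blocks kallikrein and factor XIIa, rose in the average over both atria. It lay at 10.10, 10.08 and 10.06 on the right atrium sham arrays and at 10.34, 10.43 and 10.33 on the shunt arrays. The left arrays lay at 10.33, 10.25 and 10.28 (sham) and at 10.60, 10.76 and 10.36 (shunt). The groups did not overlap in either atrium. The averaged rise was 0.29 ± 0.06 (SE, n = 6 pools per condition, adjusted p = 0.0274), with 0.29 on the right (adjusted p = 0.0997) and 0.28 on the left (adjusted p = 0.186). That call held in 2 of 12 exclusions of an array, those of left atrium shunt replicate 3 and left atrium sham replicate 1, with an adjusted p up to 0.073. Cfi, the protease that inactivates C3b, and Cd55, which speeds the decay of the convertases, differed by -0.14 to 0.19. Cd59b, which blocks the membrane attack complex, differed by 0.04 and -0.03.

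Of the coagulation factor genes none passed with the shunt in either atrium. F3, which encodes tissue factor, lay at 6.26, 6.45 and 6.59 on the left atrium sham arrays and at 5.79, 6.05 and 6.07 on the left atrium shunt arrays, without overlap. The difference was -0.46 ± 0.11 (SE, n = 3 pools per group, adjusted p = 0.0773), against 0.08 on the right (adjusted p = 0.75). It passed without left atrium shunt replicate 3, at -0.51, and at -0.46 on all arrays when dim probe sets were excluded or the probe sets of each gene were averaged. F13a1, the fibrin-crosslinking A subunit of factor XIII, lay at 8.31, 8.33 and 8.20 on the right atrium sham arrays and at 8.37, 8.76 and 8.84 on the shunt arrays, a difference of 0.38 ± 0.17 (adjusted p = 0.239). F2r, the thrombin receptor PAR1, differed by 0.23 on the right and by -0.19 on the left (adjusted p = 0.292 and 0.501).

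Among the anticoagulant genes, Thbd, which encodes the endothelial thrombin receptor thrombomodulin, rose in the right atrium. It lay at 7.21, 7.26 and 7.17 on the right atrium sham arrays and at 7.54, 7.92 and 7.79 on the shunt arrays, which were all higher. The rise was 0.54 ± 0.12 (1.45-fold, SE, n = 3 pools per group, adjusted p = 0.0309). The left arrays lay at 7.72, 7.78 and 7.72 (sham) and at 7.71, 8.07 and 7.63 (shunt), and overlapped. The other 2 probe sets of Thbd differed by 0.34 and 0.49 on the right, without passing, and by -0.10 and -0.09 on the left. The call failed when any right atrium sham array was left out, or shunt replicate 2 or 3 of that atrium, with an adjusted p up to 0.13, and after a second quantile normalization. With right atrium shunt replicate 1 alone, where Irx4 was not above the sham arrays but the ventricular sum (12.40) was above that of every right sham array, the difference was 0.33. Of 9 endothelial markers Esam alone rose in the right atrium, by 0.37, and the log2 of their sum lay at 12.22 to 12.29 on the sham and 12.38 to 12.54 on the shunt arrays; their part was not tested.

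Tfpi, the inhibitor of the tissue factor and factor VIIa complex, rose in the average. It lay at 9.42, 9.59 and 9.46 (sham) and 9.97, 9.57 and 9.98 (shunt) on the right, and at 9.48, 9.30 and 9.20 (sham) and 9.92, 9.57 and 9.87 (shunt) on the left. Shunt replicate 2 was the lowest of its group in both atria, and on the right it fell within the sham range. The averaged rise was 0.40 ± 0.09 (SE, n = 6 pools per condition, adjusted p = 0.026), while the second probe set of Tfpi differed by -0.09 ± 0.06 (adjusted p = 0.49). As the mean of its probe sets Tfpi did not pass, at 0.16. It failed without right atrium shunt replicates 1 or 3, right atrium sham replicates 1 or 3, left atrium sham replicates 2 or 3 or replicate 1 of the left atrium shunt, with an adjusted p up to 0.0687. Procr, the endothelial protein C receptor, Pros1, protein S, and Serpind1, heparin cofactor II, differed by -0.35 to 0.15 without passing.

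In the fibrinolytic group, Serpine2, protease nexin-1, an inhibitor of thrombin, urokinase and plasmin, had the largest rise. It lay at 7.10, 7.02 and 7.13 on the right atrium sham arrays and at 8.16, 7.91 and 7.84 on the shunt arrays, which did not overlap. On the left it lay at 8.18, 7.74 and 7.87 (sham) and at 9.47, 8.91 and 8.15 (shunt), where shunt replicate 3 was just below the highest sham array. The averaged rise was 0.90 ± 0.17 (1.87-fold, SE, n = 6 pools per condition, adjusted p = 0.0117), with 0.89 ± 0.24 on the right (adjusted p = 0.0681) and 0.91 ± 0.24 on the left (adjusted p = 0.111). The averaged call held in all 12 exclusions of an array, with an adjusted p up to 0.0363, and in the other settings of the fit that were tried. With right atrium shunt replicate 1 alone it was 0.99 (adjusted p = 0.0794). Without left atrium shunt replicate 3, Serpine2 passed in the left atrium as well, at 1.26, as it did with array weights, at 1.07.

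Plaur, the urokinase receptor, lay at 4.42, 4.33 and 4.29 on the right atrium sham arrays and at 4.74, 4.80 and 4.79 on the shunt arrays. All shunt arrays were above all sham arrays, and Plaur rose by 0.43 ± 0.09 (1.35-fold, SE, n = 3 pools per group, adjusted p = 0.0248). On the left it lay at 4.93, 4.65 and 4.73 (sham) and at 4.75, 4.69 and 4.51 (shunt), with overlap. The probe set that stood for Plaur was itself dim, with a mean of 4.64 against a median of 5.46 over all probe sets. It did not stay when dim probe sets were excluded. The second, still dimmer probe set of Plaur differed by -0.25 ± 0.10 on the right (adjusted p = 0.168), and as the mean of both Plaur did not pass, at 0.09. The call failed without any right atrium shunt replicate or right atrium sham replicates 2 or 3, with an adjusted p up to 0.0965. The activator genes Plat (tissue type) and Plau (urokinase) differed by 0.06 and 0.32 on the right and by -0.03 and -0.22 on the left, without passing.

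Fibrinogen is built of alpha, beta and gamma chains, encoded side by side by Fga, Fgb and Fgg. Fgg lay at 4.37, 4.53 and 4.49 on the right atrium sham arrays and at 3.96, 3.78 and 4.08 on the shunt arrays. On the left it lay at 5.27, 5.53 and 5.43 (sham) and at 4.29, 4.17 and 4.29 (shunt). In both atria all shunt arrays were below all sham arrays, and the left shunt arrays lay below the right sham arrays as well.

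Fgg fell by 1.16 ± 0.09 on the left (2.23-fold, SE, n = 3 pools per group, adjusted p = 0.000242) and fell by 0.53 ± 0.09 on the right (1.44-fold, adjusted p = 0.0138). The averaged difference was -0.84 ± 0.07 (adjusted p = 4.12e-05). The left and averaged calls held in every setting tried on all 12 arrays or with 1 left out; Fgg was too dim to stay when dim probe sets were excluded. The right call failed without right atrium shunt replicate 2 or right atrium sham replicates 2 or 3, with an adjusted p up to 0.0714. Right atrium shunt replicate 1 alone gave -0.51.

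Fgb lay at 3.88, 4.08 and 3.85 on the left atrium sham arrays and at 3.76, 3.43 and 3.69 on the shunt arrays, a difference of -0.31 ± 0.11 (adjusted p = 0.236), and differed by 0.18 on the right. Fga differed by -0.21 ± 0.13 on the left (adjusted p = 0.529) and by -0.08 on the right. Neither passed, and both lay in the lowest 25% of probe sets. The 3 chain genes were not tested against each other. None of 8 hepatocyte markers passed in either atrium with the shunt, and the log2 of their sum lay at 8.09 to 8.49 on the left sham and 8.44 to 8.54 on the left shunt arrays, and at 8.89 to 9.05 and 9.10 to 9.19 on the right. The albumin gene Alb, also among the lowest 25%, lay between 3.52 and 3.92 on all arrays.

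**Figure D2:**
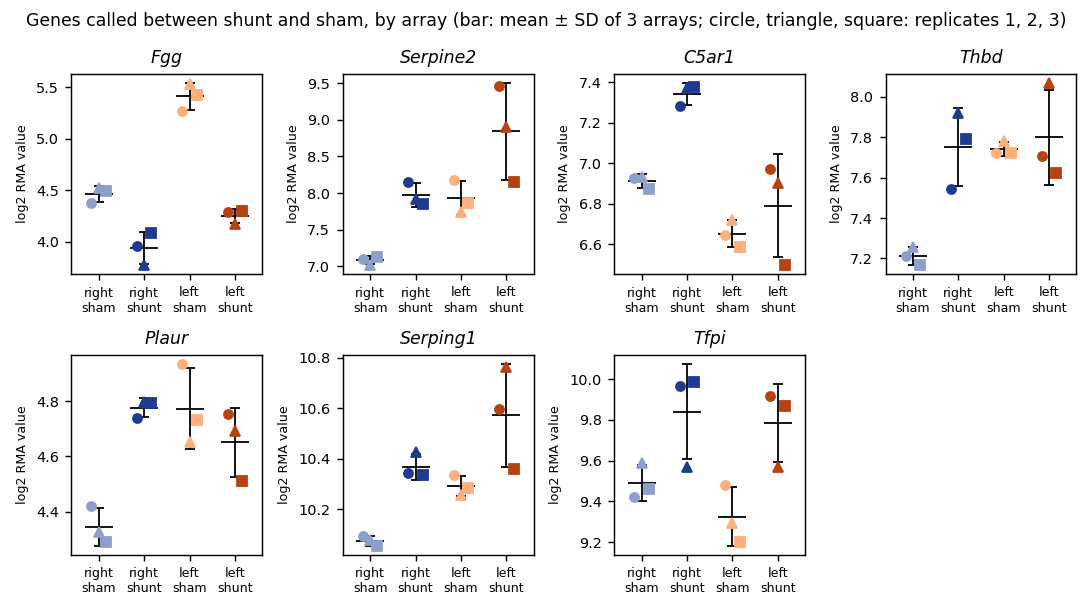
Log2 RMA values (y axis) of the 7 genes called between shunt and sham, in the 4 groups of arrays (x axis), with the mean and SD of 3 arrays as bars and replicates 1, 2 and 3 as circles, triangles and squares; the y axes differ in range and do not start at 0. Fgg is lower in the shunt groups of both atria, while C5ar1, Thbd and Plaur are apart from sham on the right and overlap with it on the left.

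Lbp, which encodes the lipopolysaccharide binding protein, differed by 0.45 ± 0.14 on the right (adjusted p = 0.107) and by -0.11 on the left. Serpinf1, the antiangiogenic PEDF, differed by 0.19 and 0.21 (adjusted p = 0.387 and 0.452).

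Whether the shunt acted differently in the atria was tested as the left minus right difference of the shunt effects. None of the 36 genes passed, against 0.0281% of all genes. At an unadjusted p under 0.05 there were 8 (22.2%, against 14.5% of all genes), and with array weights or with trend and robust options in limma there were also 0. The largest was Fgg, at -0.63 ± 0.13 (SE, n = 3 pools per group, adjusted p = 0.141). Plaur differed by -0.55 (adjusted p = 0.141), Lbp by -0.55 (adjusted p = 0.257), F3 by -0.54 (adjusted p = 0.183) and Thbd by -0.48 (adjusted p = 0.234). So the rises of C5ar1, Thbd and Plaur in the right atrium are not shown to differ from the left.

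The left and right atria differed in many of these genes. In sham rats 12 of 36 were higher on the left (33.3%, against 22.2% of all genes) and 6 were lower (16.7%, against 15.4%). In shunt rats 8 were higher on the left (22.2%, against 21%) and 8 lower (22.2%, against 19.4%), shares near those of all genes. The median left minus right difference was 0.17 in sham, against 0.04 over all genes, and 0.01 in shunt, against 0.04. In both conditions 13 passed, all 13 in the same direction, as comparisons of other arrays: C3, F2, F10, Serpine2, Fga, Fgg, Serpinf1 and Lbp were higher on the left, and C1qa, C6, F8, F13a1 and Plat on the right. F3, Thbd, Serpind1, Plaur and Fgb passed in sham rats, and C1s, C5ar1 and Pros1 in shunt rats, and a difference between the conditions was not shown for any of them (the test above).

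**Figure D3:**
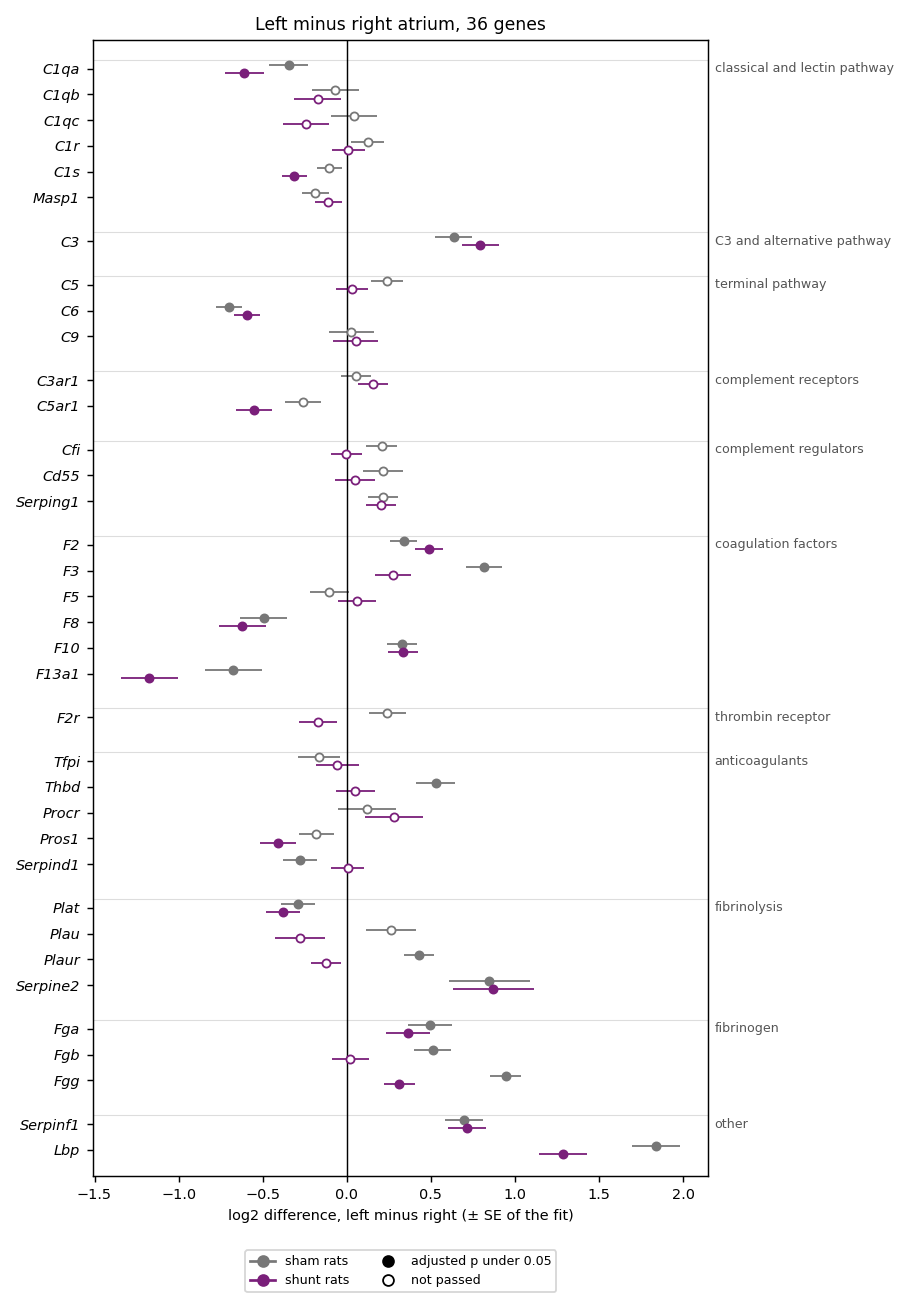
Log2 difference of left minus right atrium (x axis, with the SE of the limma fit) for the 36 genes (y axis, grouped by role) in sham rats (grey) and shunt rats (purple); filled points had an adjusted p under 0.05. Lbp lies highest in both, at 1.84 and 1.29, and F13a1 lowest in shunt rats, at -1.17.

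Lbp had the largest chamber difference. It lay at 5.71, 6.02 and 6.11 on the right and at 7.64, 7.92 and 7.81 on the left in sham rats. In shunt rats it lay at 6.56, 6.26 and 6.37 on the right and at 7.66, 7.97 and 7.42 on the left. Every left array was above every right array; the difference was 1.84 ± 0.14 in sham rats (SE, n = 3 pools per group, 3.58-fold, adjusted p = 2.18e-06) and by 1.29 ± 0.14 in shunt rats (2.44-fold, adjusted p = 4.16e-05). Serpinf1 lay at 9.95, 9.85 and 10.07 (sham) and 10.33, 10.10 and 10.01 (shunt) on the right, and at 10.67, 10.57 and 10.72 (sham) and 11.05, 10.91 and 10.64 (shunt) on the left. It was higher on the left by 0.70 ± 0.11 (adjusted p = 0.000458) and 0.72 ± 0.11 (adjusted p = 0.000465).

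In the complement cascade, C3 was higher on the left by 0.64 ± 0.11 in sham (adjusted p = 0.000743) and 0.79 ± 0.11 in shunt rats (adjusted p = 0.0002, SE, n = 3 pools per group), with no overlap of the arrays listed above. C6, which joins C5b in the membrane attack complex, lay at 4.96, 4.78 and 4.88 on the right and at 4.23, 4.13 and 4.16 on the left in sham rats. The difference was -0.70 ± 0.08 in sham rats (adjusted p = 2.46e-05), and in shunt rats it was -0.59 ± 0.08 (adjusted p = 0.000116), from 4.75, 4.68 and 4.73 on the right to 4.04, 4.24 and 4.11 on the left. C1qa differed by -0.35 ± 0.12 in sham (adjusted p = 0.036) and -0.61 ± 0.12 in shunt rats (adjusted p = 0.00164), while C1qb (-0.07 and -0.17) and C1qc (0.04 and -0.24) did not pass; the chains were not tested against each other. The sham call of C1qa failed without right atrium sham replicates 2 or 3 or left atrium sham replicates 1 or 3, with an adjusted p up to 0.139. In shunt rats C5ar1 was lower on the left (-0.55 ± 0.11, adjusted p = 0.00155), as was C1s (-0.31 ± 0.07, adjusted p = 0.00554), which lay at 10.53, 10.68 and 10.61 on the right and at 10.35, 10.31 and 10.22 on the left. C1s in sham rats lay at 10.50, 10.38 and 10.38 on the right and at 10.29, 10.27 and 10.39 on the left, where the groups overlapped.

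Among the coagulation factors, F3 was higher on the left in sham rats by 0.82 ± 0.11 (SE, n = 3 pools per group, 1.76-fold, adjusted p = 9.65e-05), from 5.49, 5.79 and 5.58 on the right to the 6.26 to 6.59 given above. In shunt rats the right arrays lay at 5.66, 5.68 and 5.74 and the difference was 0.28 ± 0.11 (adjusted p = 0.0588). F13a1 was higher on the right, where the arrays listed above lay between 8.20 and 8.84. On the left it lay at 7.43, 7.75 and 7.63 (sham) and at 7.60, 7.79 and 7.06 (shunt). The left minus right difference was -0.68 ± 0.17 in sham (adjusted p = 0.00752) and -1.17 ± 0.17 in shunt rats (adjusted p = 0.00024). Its second probe set differed by -0.22 (adjusted p = 0.45) and -0.59 (adjusted p = 0.0444), and the mean of both did not pass in sham rats, at -0.45.

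F8, factor VIII, the cofactor that is lacking in haemophilia A, had 5 probe sets that went apart. The brightest lay at 8.26, 8.30 and 8.43 (sham) and 8.74, 8.61 and 8.65 (shunt) on the right, and at 7.93, 7.96 and 7.62 (sham) and 7.69, 8.13 and 8.32 (shunt) on the left. It was lower on the left, by -0.49 ± 0.14 in sham (adjusted p = 0.0146) and -0.62 ± 0.14 in shunt rats (adjusted p = 0.00405), and the second differed by -0.84 and -0.69 and passed in both. Others passed in the opposite direction: the third (0.28) and the fifth (0.42) in sham rats, and the fourth (0.36) and the fifth (0.55) in shunt rats. As the mean of its probe sets F8 did not pass, at -0.08 in each condition, and the sham call failed without right atrium sham replicate 3 or left atrium sham replicate 3, with an adjusted p up to 0.066. The direction of F8 is therefore uncertain here. The dim probe set of F2 (prothrombin) lay at 3.05, 3.15 and 3.14 (sham) and 2.95, 2.94 and 2.95 (shunt) on the right, and at 3.40, 3.49 and 3.47 (sham) and 3.43, 3.60 and 3.27 (shunt) on the left. It was higher on the left by 0.34 ± 0.08 (adjusted p = 0.00657) and 0.49 ± 0.08 (adjusted p = 0.000694), without overlap. F10 (factor X) lay at 3.72, 3.76 and 3.60 (sham) and 3.58, 3.41 and 3.67 (shunt) on the right, and at 3.90, 4.06 and 4.10 (sham) and 3.95, 3.78 and 3.93 (shunt) on the left. It was higher on the left by 0.33 ± 0.09 (adjusted p = 0.0122) and 0.34 ± 0.09 (adjusted p = 0.0108). F10 failed in sham without right atrium sham replicate 3 (adjusted p = 0.0516) and in shunt without right atrium shunt replicate 2 (adjusted p = 0.0541).

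Of the anticoagulants, Thbd was higher on the left in sham rats by 0.53 ± 0.12 (n = 3 pools per group, SE, adjusted p = 0.00333), and at 0.05 ± 0.12 in shunt rats (adjusted p = 0.758) the right atrium lay at the level of the left. The third of its probe sets was higher on the left in both, by 1.17 and 0.59. Pros1 lay at 8.32, 8.14 and 8.35 on the right and at 7.89, 8.02 and 7.68 on the left in shunt rats, and was lower on the left (-0.41 ± 0.11, adjusted p = 0.00913). Its sham arrays, at 8.34, 8.03 and 8.06 on the right and 7.96, 8.03 and 7.90 on the left, met at 8.03. Serpind1, with overlapping groups of 3.96, 3.74 and 4.03 on the right and 3.44, 3.80 and 3.66 on the left, passed in sham rats at -0.28, and held in 4 of 12 exclusions of an array: it failed without any right atrium shunt replicate, right atrium sham replicates 1 or 3, left atrium sham replicates 1 or 3 or left atrium shunt replicate 2 (adjusted p up to 0.179). Its shunt arrays lay at 3.81, 3.76 and 3.76 on the right and at 3.85, 3.72 and 3.76 on the left. The second probe set of Tfpi was lower on the left, by -0.37 and -0.34 past the threshold, and the second probe set of Cd55 higher, by 0.96 and 0.73, where the probe sets that stood for these genes did not pass.

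In fibrinolysis, Serpine2 was higher on the left by 0.85 ± 0.24 in sham (SE, n = 3 pools per group, adjusted p = 0.0152) and 0.87 ± 0.24 in shunt rats (adjusted p = 0.013), where left replicate 3 (8.15) overlapped with the right arrays. The sham call failed without left atrium sham replicate 1 (adjusted p = 0.0633). Plat lay at 9.30, 9.11 and 9.36 (sham) and 9.47, 9.35 and 9.14 (shunt) on the right, and at 8.997, 8.95 and 8.95 (sham) and 9.08, 8.91 and 8.82 (shunt) on the left. It was lower on the left, by -0.29 ± 0.10 in sham (adjusted p = 0.038) and -0.38 ± 0.10 in shunt rats (adjusted p = 0.0105). Its sham call failed when any left atrium sham array was left out, or right atrium sham replicate 1 or 3, with an adjusted p up to 0.13. Plaur was higher on the left in sham rats by 0.43 ± 0.09 (adjusted p = 0.00228) and differed by -0.12 in shunt rats. The second probe set of Plau passed at 0.60 and 0.46, while the first did not.

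All 3 fibrinogen genes were higher on the left in sham rats. Fgg differed by 0.95 ± 0.09 (1.93-fold, SE, n = 3 pools per group, adjusted p = 1.2e-05), Fgb by 0.51 ± 0.11 (adjusted p = 0.00314) and Fga by 0.50 ± 0.13 (adjusted p = 0.0109). Fga lay at 3.39, 3.11 and 3.14 on the right and at 3.51, 3.88 and 3.72 on the left, and Fgb at 3.42, 3.62 and 3.24 on the right, below its left arrays given above. In shunt rats Fga lay at 3.33, 2.86 and 3.21 on the right and 3.43, 3.42 and 3.64 on the left, and the right arrays of Fgb lay at 3.60, 3.65 and 3.57. There Fgg differed by 0.31 ± 0.09 (adjusted p = 0.0196) and Fga by 0.36 ± 0.13 (adjusted p = 0.0457), while Fgb differed by 0.02. The Fgg call in shunt rats failed without right atrium shunt replicate 2 or left atrium shunt replicate 1 (adjusted p up to 0.0919). That of Fga held in 4 of 12 exclusions, and failed without right atrium shunt or sham replicates 2 or 3, left atrium sham replicate 3 or any array of the left atrium shunt (adjusted p up to 0.199). The second probe set of Fga and the third of Fgb did not pass in either condition, and the second of Fgb passed in shunt rats at 0.22.

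**Figure D4:**
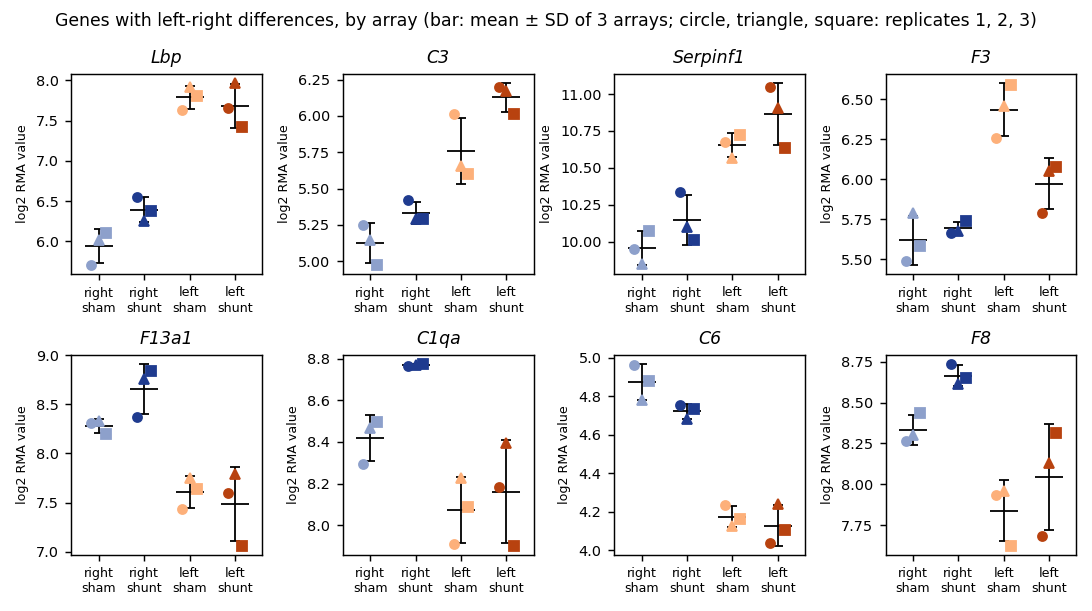
Log2 RMA values (y axis) of 8 genes with left and right differences in the 4 groups of arrays (x axis), with the mean and SD of 3 arrays as bars and replicates 1, 2 and 3 as circles, triangles and squares; the y axes differ in range and do not start at 0. Lbp, C3 and Serpinf1 are higher on all left arrays and F13a1 and C6 on all right arrays; F8 is shown on its brightest probe set only.

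Cell markers differed between the atria too. Of 11 macrophage markers Adgre1 (-1.26), Ptprc (-0.92) and Cd163 (-0.57) were lower on the left in sham rats, none was higher, and the list's median was -0.16. In shunt rats 6 were lower and none higher, with a median of -0.43, alongside the lower C1qa, C5ar1 and F13a1. C1qb and C1qc did not pass there, and C3ar1 differed by 0.16. The log2 of the summed macrophage level, led by Lyz2, overlapped between the atria (11.13 to 11.19 right and 11.11 to 11.23 left in sham rats). Of 5 platelet and megakaryocyte markers none passed in sham rats and 1 was higher on the left in shunt rats, with medians of -0.20 and 0.21. Of 7 mesothelial markers Msln (1.39), Krt19 (0.94), Krt8 (0.82), Upk1b (0.71) and Krt18 (0.48) were higher on the left in sham rats, and the log2 of their sum was 9.33 to 9.73 on the right and 10.18 to 10.45 on the left, alongside the higher Lbp and C3. In shunt rats 3 of the 7 were higher and 1 lower on the left, with a median of 0.43. The log2 of their sum lay there at 9.36 to 9.66 on the right. On left shunt replicates 1, 2 and 3 it lay at 10.28, 10.32 and 9.68. Of 8 hepatocyte markers Ahsg was higher (0.29) and Ttr lower (-1.02) on the left in sham rats, and Alb differed by -0.02. Of 5 ventricular markers 4 were lower on the left in each condition, Myl2 the most, at -5.69 in sham and -6.38 in shunt rats. Of 5 smooth muscle markers 4 were higher on the left in each, with medians of 0.38 and 0.34. Of 4 erythrocyte markers 1 was higher on the left in sham and 3 in shunt rats. The log2 of their sum lay at 12.5 to 12.7 on the right shunt arrays. On left shunt replicates 1, 2 and 3 it lay at 13.3, 13.2 and 12.6. Of 7 neuronal markers 0 were higher on the left in sham and 4 in shunt rats, and of 6 adipocyte markers 1 and 3. None of these 3 lists had a marker lower on the left. Of 9 endothelial markers 4 were higher and 1 lower in sham rats and 2 higher and 3 lower in shunt rats, as were 4 and 1 and then 2 and 3 of 10 fibroblast markers. Beside these counts, 22.2% of all genes were higher and 15.4% lower on the left in sham rats. In shunt rats 21% were higher and 19.4% lower. In either direction 37.6% of all genes passed in sham rats and 40.5% in shunt rats. The part of these cell types in the chamber differences was not tested.

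Another 48 measured genes of the same pathways, not among the 36, were examined. With the shunt, Vtn, which encodes vitronectin, a carrier of the plasminogen activator inhibitor and a blocker of the membrane attack complex, rose in the right atrium. It lay at 6.40, 6.35 and 6.62 on the sham and at 6.85, 7.23 and 7.27 on the shunt arrays, a rise of 0.66 ± 0.11 (SE, n = 3 pools per group, adjusted p = 0.0116), against 0.00 on the left. Anxa2, a cell surface receptor for plasminogen and its tissue activator, rose by 0.46 ± 0.08 on the right (adjusted p = 0.0129), and F12, factor XII, fell by 0.29 ± 0.07 (adjusted p = 0.0494). These 3 of 48 passed on the right (6.25%, against 3.97% of all genes) and none on the left (against 0.936%). In the average Vtn (0.33) and Anxa2 (0.27) rose, 2 of 48 (4.17%, against 5.25%). The shares lay near those of all genes.

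Between the atria, 10 of the 48 were higher (20.8%, against 22.2% of all genes) and 3 lower (6.25%, against 15.4%) on the left in sham rats, with a median of 0.01, so the shares were at or below those of all genes. Vtn (1.33), Anxa2 (0.71), Gas6 (0.64), a vitamin K dependent ligand of TAM receptors, and Lman1 (0.55), which carries factors V and VIII out of the endoplasmic reticulum, were the largest on the left. Cd93 (-0.67), Itgb2 (-0.64), the beta chain of the leukocyte complement receptors, and the ficolin gene Fcna (-0.42) were higher on the right. In shunt rats 9 were higher (18.8%, against 21%) and 4 lower (8.33%, against 19.4%) on the left, led by Vtn (0.67), Gas6 (0.56), F12 (0.50) and Hrg (0.42) and by Fcna (-1.09), Cd93 (-1.05), Tfpi2 (-0.65) and Itgb2 (-0.64).

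In all, 23 of the 36 genes (63.9%) passed in at least 1 of the 6 comparisons, against 54% of all genes, 7 of them (19.4%, against 6.63%) between shunt and sham, and 13 in none. Those 13 were C1qb, C1qc, C1r, Masp1, C5, C9, C3ar1, Cfi, Cd55, F5, F2r, Procr and Plau, with Tfpi and Serping1 among the 7 and not between the atria. A difference that did not pass is not shown to be absent with 3 pools per group.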

How the data were processed

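Biotin-labelled cRNA of each pool was hybridised to 1 Affymetrix rat array, per the labels' protocols. The deposited values are log2 expression levels of probe sets. The submitters' processing notes name RMA, which background-corrects, quantile-normalizes and summarises probes; its version is not given in the sources used here. A shift shared by most transcripts is thus not visible. Of 31099 probe sets 57 controls were left out. The array's annotation gave 20826 probe sets 1 gene, 436 several and 9780 none. Values were used as deposited, with no filter.

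The 4 group means were fitted for each of 31042 probe sets over all 12 arrays with limma 3.58.1 in R 4.3.3 (lmFit, contrasts.fit, eBayes), two-sided, with Benjamini-Hochberg adjustment over all probe sets and a threshold of 0.05. All adjusted p-values come from it or, where said, from its alternatives. The fit was tested on simulated data. The 36 genes, the other lists and the tests were chosen with earlier results of these data known. Genes past the threshold were described with all arrays, and of the 48 other pathway genes up to 4 per direction and comparison. Arrays have no read depth; their number limits the precision, and p-values measure the spread between pools. Alternatives were another scaling, a filter on dim probe sets, other limma options, fewer groups, a replicate block, other probe set rules and leaving out each array.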

Additional observations from a re-analysis of the deposited data

Results flagged for a closer look

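F12, which encodes factor XII, the starter of the contact pathway, fell in the right atrium (-0.29 ± 0.07, adjusted p = 0.0494 in the limma fit) and had a difference of the opposite sign in the left, which did not pass (0.26 ± 0.07, adjusted p = 0.127). All right atrium shunt arrays (4.68, 4.70 and 4.83) lay below all right atrium sham arrays (5.02, 5.02 and 5.06), and all left atrium shunt arrays (5.20, 5.18 and 5.34) lay above all left atrium sham arrays (5.03, 4.92 and 4.98). The left minus right difference of the shunt effects in log2 units was 0.55 ± 0.10 (n = 3 pools per group, SE), with an unadjusted p = 0.000132 and an adjusted p = 0.108 in the limma fit, so it did not pass over all probe sets.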

How the results depend on the processing

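No gene of the 36 that passed in a comparison changed direction in any alternative. In the right atrium 4 of the 36 passed; 2 did after quantile normalization again, 7 with array weights and 9 in a fit of the right arrays only, and 0 to 7 when an array was left out: 0 without right atrium shunt replicate 2 or right atrium sham replicates 2 or 3, 1 without right atrium shunt replicate 3, 2 without right atrium shunt replicate 1 or right atrium sham replicate 1, and 7 without left atrium shunt replicate 3. In the left atrium 1 passed, 2 with array weights, with the replicate block or as the mean of probe sets, and 1 to 4 with an array left out (4 without left atrium shunt replicate 3: Fgg, F3, Serpine2 and Serping1). In the average 4 passed; 7 did without dim probe sets, with trend and robust options or with the replicate block, 8 with array weights or 1 probe set per gene, and 2 to 9 with an array left out (9 without left atrium shunt replicate 3; 2 without right atrium shunt replicate 3, right atrium sham replicates 1 or 3 or left atrium sham replicates 2 or 3). For the difference of the shunt effects the count was 0 in every alternative. Left against right, 18 passed in sham and 16 in shunt rats; in sham 10 did without dim probe sets, which left fewer genes to test, and 13 to 20 and 13 to 17 did with an array left out. With right atrium shunt replicate 1 alone, an alternative chosen after seeing the data, the counts were 0 in the right atrium, 1 in the average and 7 for left against right in shunt rats, from fewer arrays. The cause of the other shifts was not tested.

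The labels do not say whether same-numbered arrays share animals. Deviations of right and left arrays from their group means correlated at 0.10, 0.15 and 0.08 for sham replicates 1, 2 and 3. For shunt replicates 1, 2 and 3 the correlations were 0.13, 0.14 and 0.09. Same-numbered arrays of different operations gave -0.10 to 0.07. Whether the right and left arrays of a number came from the same rats was not tested. The replicate block joins sham and shunt arrays of a number, so it cannot decide this. The main fit took all arrays as separate pools, in the average and in the tests of left against right. If right and left arrays share rats, the SE and p-values of the averaged results may be too small. The tests of left against right would then lack the pairing. A fit that pairs right and left arrays within each operation was not made. With the replicate block the counts among the 36 were 4, 2, 7, 0, 18 and 17 in the order above, and 3 genes no longer passed: C5ar1 in the right atrium, Serpind1 between the atria in sham rats and Fga in shunt rats.

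Of all probe sets, 923 passed in the right atrium (64% higher), 664 after quantile normalization again (53% higher), 2352 with array weights, 1415 in the fit of the right arrays only, 19 with right atrium shunt replicate 1 alone and 148 to 1631 with an array left out. In the left atrium 233 passed, 453 without dim probe sets, 485 with trend and robust options, 370 with array weights, 13 in the fit of the left arrays only and 77 to 554 with an array left out. In the average 1198 passed, 1867 with array weights, 239 with right atrium shunt replicate 1 alone and 672 to 2018 with an array left out. For the difference of the shunt effects 8 passed (87.5% higher), 4 after subtraction of array medians (75% higher), 3 with the replicate block, 19 without dim probe sets, 15 with trend and robust options or array weights, 0 with right atrium shunt replicate 1 alone and 0 to 21 with an array left out. Left against right in shunt rats 11690 passed, and 4797 with right atrium shunt replicate 1 alone.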
